A study of Schizosaccharomyces pombe with 24 samples.

Results

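The step from 1 h to 2 h without nitrogen was examined in small RNA of Schizosaccharomyces pombe, fission yeast. It rests on 6 of the 24 libraries of the series, 1 at 1 h and 1 at 2 h in each of 3 strains, with the 3 libraries at 0 h of the same strains set beside them so that what reversed, persisted or began could be told apart. The strains were wt (975 h+) and 2 that the labels give as deletions in that background, clr4D, lacking the histone H3 lysine 9 methyltransferase, and dcr1D, lacking Dicer. A strain labelled ago1D was left out because its early time labels appear doubtful. All cultures grew at 32 °C in EMM, a defined medium, supplemented with adenine, histidine, leucine, lysine and uracil, were washed and then stood in EMM without nitrogen. The sources used here do not say whether that medium held the supplements. Small RNA was gel-purified from total RNA, so the counts measure short RNA mapping to a gene, not its messenger RNA. The labels do not say which libraries had cultures of their own, and p-values reflect only how these libraries vary, which may be technical.

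Fission yeast without nitrogen stops dividing and, with no mating partner, becomes quiescent. It then takes up and breaks down poorer nitrogen sources (purines, pyrimidines, proline, amines and peptides), recycles its own protein through autophagy, and makes fewer ribosomes. Stress genes under the MAP kinase Sty1 and the transcription factor Atf1 protect cells with trehalose, glycerol and antioxidant enzymes. Short RNA also comes from tRNAs, from mitochondrial transcripts and, through Dicer and Argonaute, from pericentromeric repeats.

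Reads counted in genes numbered 282058 to 469222 per library at 1 h and 207035 to 276033 at 2 h, against 634379 to 2121235 at 0 h. They were 2.87% to 5.36% of reads at 1 h, 2.09% to 3.2% at 2 h and 13.1% to 25.2% at 0 h; the other reads were mostly set aside for low mapping quality. Counting error is therefore larger at 1 h and 2 h, and the part of this loss of usable reads in the results was not tested. In the libraries labelled clr4D, clr4 itself had 51, 67 and 48 counts at 0, 1 and 2 h, against 26, 9 and 16 in wt. In those labelled dcr1D, dcr1 had 79, 27 and 31 counts, against 37, 18 and 16 in wt. These counts do not bear out the labels, while the pericentromeric SPNCRNA.232, with 1938, 117 and 178 counts in wt, had 38, 5 and 6 in clr4D and 1, 3 and 0 in dcr1D. The labels do not say which part of a gene was deleted. "clr4D" and "dcr1D" below mean the libraries so labelled. Genes of both mating types were counted in all 3 strains. The P-factor gene map2 of h+ cells had 21, 3 and 1 counts in wt, 7, 3 and 2 in clr4D and 29, 2 and 8 in dcr1D. Of the M-cell genes mam1 had 25, 13 and 18 counts in wt, 19, 27 and 27 in clr4D and 89, 25 and 24 in dcr1D, whereas mfm2 had 0, 1 and 0 in wt, 21, 11 and 18 in clr4D and 27, 12 and 10 in dcr1D.

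Levels below are CPM (read counts per gene relative to the library's total) scaled by edgeR's TMM factors, called normalised CPM, and fold changes are log2 values with a standard error (SE) from a fit with a term for strain. A gene was called in edgeR's quasi-likelihood test where its p, adjusted by Benjamini-Hochberg over the 3584 genes tested, was below 0.05. Between 1 h and 2 h, 310 genes changed, 8.65% of those tested: 132 rose (3.68%) and 178 fell (4.97%). From 0 h to 1 h 1689 had changed, 47.1% (23.4% rose and 23.7% fell). At 2 h 1802 differed from 0 h, 50.3% (25% higher and 25.3% lower). Counts of called members of lists below are to be read beside these shares of all genes. Without the clr4D pair 35 rose and 81 fell, and without the wt pair 75 rose and 128 fell. TMM holds the median gene still. With total counts as the scale the median log2 fold change over all genes was 0.51 in place of 0.02, and the same step had 910 rises and 66 falls among the 3584 genes, so rises and falls below are relative to the TMM scale. All 132 rises were called on both scales, but 66 of the 178 falls. At 2 h against 0 h, total counts gave 1769 genes higher and 399 lower, with a median of 0.66 in place of -0.008. Levels given against 0 h below therefore rest on the TMM scale too.

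The 3 comparisons share libraries, and the following classes are a description with no test of their own. Of the 310 genes, 113 reversed, that is, they had been called at 1 h against 0 h and were called the opposite way at 2 h against 1 h. Of these 90 had risen and then fell, and 23 had fallen and then rose. Another 106 continued, 70 upward and 36 downward. A further 81 started, called at 2 h against both 1 h and 0 h but not at 1 h, 33 upward and 48 downward. The remaining 10 were called at 2 h against 1 h alone. By these calls, persistence was the commonest course of an early change. It took in 1184 genes called at 1 h and called the same way at 2 h against 0 h, without a call between 1 h and 2 h. Of these 533 were above 0 h and 651 below. The class may hold genes whose further change was too small to call. In simulated data 28% of 1.5-fold rises, 82% of 2-fold rises and 48% of falls to 0.5 of the level were called. On the total-count scale 629 of the 1184 persisted.

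**Figure D1:**
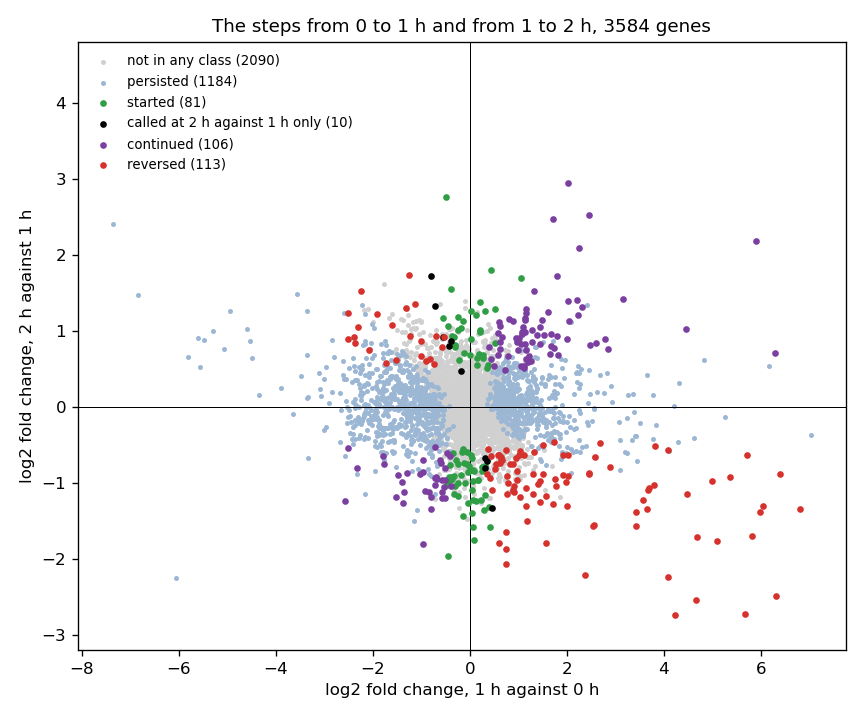
Each point is 1 of 3584 genes, with the log2 fold change of 1 h against 0 h on the x axis and of 2 h against 1 h on the y axis; colours give the class of change and the number in it. The 90 genes that rose and then fell lie at lower right and reach -2.74 on the y axis, while the 70 that kept rising lie at upper right. The axes share the 1 h libraries, so the slope of the cloud is not a result.

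The largest falls after an early rise were in urg2 and uck2, both tied to pyrimidines, though uck2 had few counts at 2 h. urg1, urg2 and urg3, uracil-regulated genes that stand side by side on chromosome I, had risen at 1 h. In normalised CPM they lost most of that rise by 2 h. urg1, a homologue of GTP cyclohydrolase II, stood at 51.5, 3406 and 566 normalised CPM at 0, 1 and 2 h in wt. It stood at 37.6, 3327 and 485 in clr4D. In dcr1D it stood at 38.1, 3190 and 726, so that at 2 h every strain was below its 1 h and above its 0 h level. The fall from 1 h to 2 h was -2.49 (SE 0.17, adjusted p = 3.3e-13), after a rise of 6.32, and at 2 h urg1 was still 3.83 above 0 h. urg2, a uracil phosphoribosyltransferase homologue, went from 2206, 3171 and 2416 normalised CPM at 1 h in wt, clr4D and dcr1D to 286, 396 and 468 at 2 h, a fall of -2.74 (SE 0.21, adjusted p = 8.2e-12). urg3 fell by 2.24 (SE 0.18, adjusted p = 8.5e-12), from 559 to 664 normalised CPM at 1 h to 102 to 170 at 2 h. None of the 3 had overlapping values between the times, but they were picked for their large falls. The share of all genes without overlap was not counted.

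Other genes of pyrimidine uptake and salvage reversed as well. fur4, the uracil permease, stood at 274, 281 and 171 normalised CPM at 1 h in wt, clr4D and dcr1D and at 64.8, 75.3 and 99.5 at 2 h. It fell by 1.56 (SE 0.22, adjusted p = 2e-06) and remained 0.98 above 0 h. Its neighbour uck2, a pyrimidine salvage gene, fell by 2.73 (SE 0.31, adjusted p = 5.9e-08), on 29, 54 and 81 counts at 1 h and 11, 5 and 6 at 2 h. cdd1, cytidine deaminase, fell by 2.22 (SE 0.35, adjusted p = 1.5e-05), back to a level not called against 0 h (0.15), on 21, 39 and 30 counts at 1 h and 3, 10 and 4 at 2 h. With few counts at 2 h, uck2 and cdd1 may have passed the filter on low counts only through 1 h. A fall of such a gene is partly fixed in advance. urh1, uridine ribohydrolase, named after its values were seen, fell by 1.71 (SE 0.20, adjusted p = 7.6e-08) and stood at 170, 174 and 325 normalised CPM at 2 h. It neighbours thi7, a transporter gene, which fell by 1.56. ura1, the large enzyme of pyrimidine synthesis, went the other way, falling at 1 h and rising by 0.62 from 1 h to 2 h. The falls of these 8 genes, the 3 urg genes included, held on the total-count scale, from -2.24 for urg2 to -1.06 for fur4 and thi7. For uck2 and cdd1 that does not lift the limit set by the filter.

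**Figure D2:**
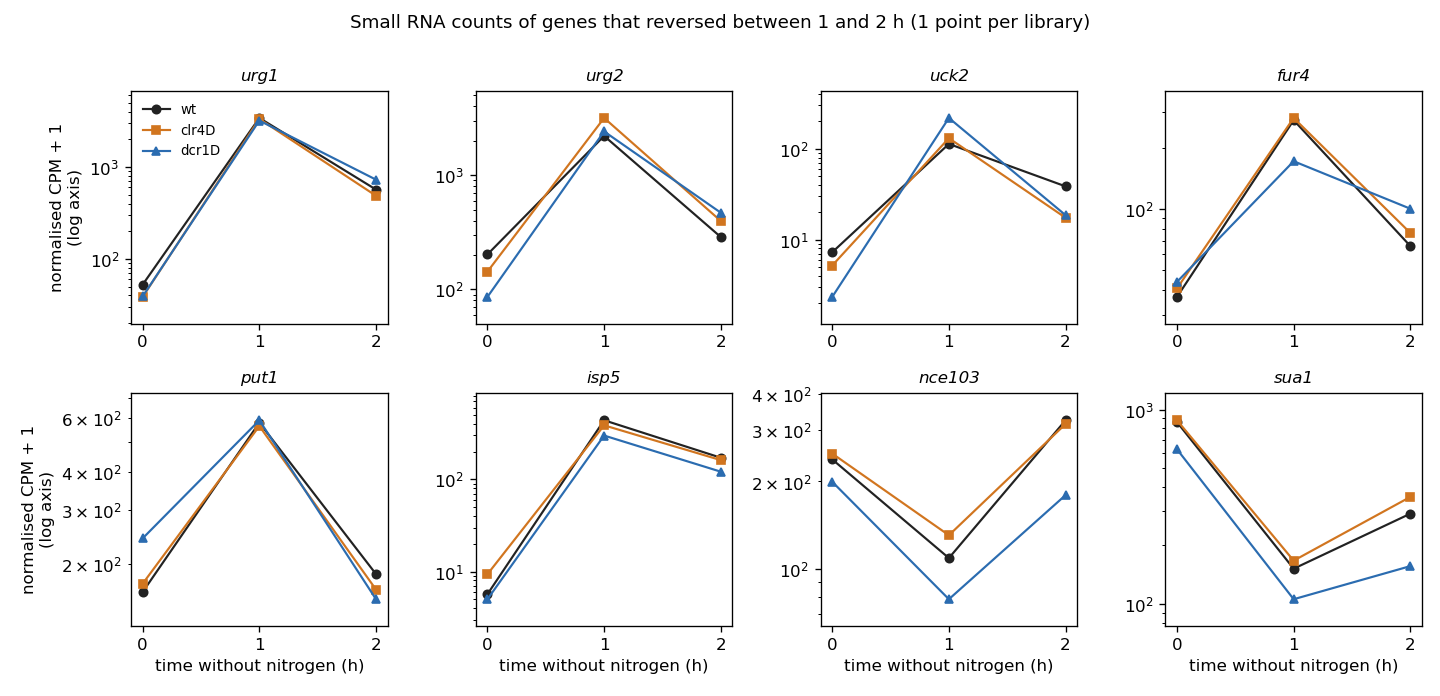
Normalised CPM plus 1 on a log axis at 0, 1 and 2 h for 8 reversed genes, 1 line per strain and 1 point per library. In urg1, urg2, uck2, fur4, put1 and isp5 the 1 h point is the highest of every line; in nce103 and sua1 it is the lowest.

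xan1, uro1, dal2 and gud1, which act in purine breakdown, also turned but stayed above 0 h. xan1, xanthine dioxygenase, rose by 6.81 at 1 h, to 1072, 924 and 742 normalised CPM in wt, clr4D and dcr1D, and fell by 1.34 (SE 0.17, adjusted p = 3.5e-07) to 290, 373 and 407. uro1, urate oxidase, fell by 1.39 (SE 0.20, adjusted p = 3e-06) and was still 4.60 above 0 h. dal2, allantoicase, stood at 544, 461 and 407 normalised CPM at 1 h and at 242, 229 and 269 at 2 h, a fall of -0.92 (SE 0.17, adjusted p = 0.00017) that left it 4.44 above 0 h. gud1, guanine deaminase, fell by 0.88 (SE 0.18, adjusted p = 0.00079). xan1, uro1 and gud1 were named after their values were seen. On the total-count scale xan1 and uro1 still fell (-0.84 and -0.90), while dal2 (-0.42) and gud1 (-0.39) were not called.

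Of 22 tested genes of nitrogen source use and breakdown, 7 fell from 1 h to 2 h and 1, ura1, rose. The median was -0.23, against 0.02 over all genes, of which 4.97% fell and 3.68% rose. At 1 h against 0 h 15 had risen and 4 fallen, beside 23.4% and 23.7% of all genes. At 2 h against 0 h 14 were higher and 4 lower, beside 25% and 25.3%. put1, proline dehydrogenase, lost the whole of its early rise on the TMM scale. It had 161, 171 and 241 normalised CPM at 0 h, 579, 564 and 589 at 1 h and 184, 164 and 152 at 2 h in wt, clr4D and dcr1D. The fall was -1.79 (SE 0.17, adjusted p = 2e-09), and at 2 h it was not called against 0 h (-0.22, adjusted p = 0.33). gdh1, glutamate dehydrogenase, fell by 0.63 (SE 0.16, adjusted p = 0.0064), and gln1, glutamine synthetase, fell by 0.47 (SE 0.15, adjusted p = 0.043). Both were named after their values were seen and neither was called on the total-count scale (-0.13 and 0.03), without wt or without clr4D. The proteases isp6 and psp3 had -0.40 and -0.20 and the allantoinase gene dal1 had 0.15, none of them called. On the total-count scale 6 of the 22 rose and 4, urg1, urg2, urg3 and put1, fell, with a median of 0.27.

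Among 17 tested genes of ammonium, amino acid and peptide uptake 6 fell and none rose at 2 h against 1 h. Of all genes 4.97% fell and 3.68% rose, and the list's median was -0.23. At 1 h 11 had risen, beside 23.4% of all genes. isp5, an amino acid permease, had 4.68, 8.35 and 4.01 normalised CPM at 0 h, 436, 384 and 297 at 1 h and 170, 161 and 120 at 2 h in wt, clr4D and dcr1D. It fell by 1.3 (SE 0.17, adjusted p = 4.1e-07) and stayed 4.74 above 0 h. Fewer counts stood behind dal51, an allantoate transporter homologue (-0.79, adjusted p = 0.0098), and fnx1, a vacuolar amino acid transporter (-0.89, adjusted p = 0.026), and neither was called on the total-count scale. amt1, an ammonium transporter named after its values were seen, fell by 0.47 (SE 0.15, adjusted p = 0.037), which became 0.02 on the total-count scale. isp4, an oligopeptide transporter, had 941, 869 and 670 normalised CPM at 1 h and 1129, 993 and 948 at 2 h, a difference of 0.32 (SE 0.15) that was not called (adjusted p = 0.23). It stood 4.63 above 0 h, among the larger persisting rises. put4 (-0.47, adjusted p = 0.11) and per1 (-0.23) were not called either, after rises of 4.28 and 3.83. On the total-count scale 2 of the 17, fur4 and isp5, fell, 2 rose, and the median was 0.26. Without the wt pair, and without the clr4D pair, 2 of the 17 fell.

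Some of the called genes were neighbours. Read in the gene order of the RefSeq annotation of ASM294v3, the 132 protein-coding genes that fell included 9 runs of adjacent genes, holding 19 genes, and the 130 that rose included 9 runs, holding 18. The only run longer than a pair was urg2, urg3 and urg1. SPAC1039.01 and SPAC1039.02, adjacent on chromosome I, fell by 1.70 and 2.54; SPAC1039.02 went from 2060, 2081 and 1575 normalised CPM at 1 h to 317, 282 and 369 at 2 h in wt, clr4D and dcr1D. SPAC1039.01 had 0, 3 and 10 counts at 0 h. Other pairs were fur4 with uck2, thi7 with urh1, and the divergent histone genes hht1 and hhf1. Upward pairs included dbl4 with tps1, wwm2 with ntp1, and nmt1 with gut2. No test of clustering was made.

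2 hexose transporter genes fell below their 0 h level. ght5, a high-affinity hexose transporter, had 359, 276 and 126 normalised CPM at 1 h and 40.9, 85.2 and 46.8 at 2 h in wt, clr4D and dcr1D. It fell by 2.07 (SE 0.24, adjusted p = 9.5e-08), to 1.31 below 0 h on the log2 scale (-1.31), although it had risen by 0.75 at 1 h. ght8, another hexose transporter, had 305, 307 and 313 normalised CPM at 1 h and 130, 138 and 146 at 2 h. It fell by 1.16 (SE 0.19, adjusted p = 2.1e-05) with no call at 1 h (0.31). adh4, an alcohol dehydrogenase, fell by 1.80 (SE 0.35, adjusted p = 0.00037), on 15, 22 and 26 counts at 1 h and 6, 5 and 5 at 2 h. Of the 22 tested genes of glycolysis and fermentation these 3 fell, beside 4.97% of all genes. The 3 that rose were fba1, aldolase (0.79, SE 0.16, adjusted p = 0.00048), pfk1, phosphofructokinase (0.63), and pdc201, a pyruvate decarboxylase (0.93). The list's median was 0.42. The same 3 fell on the total-count scale, where 17 rose. Without the clr4D pair the 3 falls were called and none of the rises was.

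Of 35 tested core environmental stress genes 14 rose between 1 h and 2 h, beside 3.68% of all genes, 1 fell and 20 were not called, with a median of 0.48; at 1 h against 0 h 19 had risen and 10 fallen. On the total-count scale 23 rose and none fell; without the clr4D pair 6 rose and none fell. tps1, trehalose-6-phosphate synthase, had 363, 319 and 453 normalised CPM at 1 h and 907, 809 and 644 at 2 h in wt, clr4D and dcr1D, a continued rise of 1.05 (SE 0.17, adjusted p = 1.7e-05). ntp1, neutral trehalase, continued upward by 1.17 (SE 0.18, adjusted p = 1.6e-05). tps3, a related gene outside the list, began to rise in this hour, by 1.26 (SE 0.16, adjusted p = 6.5e-07), from 239, 218 and 327 to 644, 583 and 641 normalised CPM. gpd1, glycerol-3-phosphate dehydrogenase, rose from 733, 790 and 688 to 1841, 1831 and 1317 normalised CPM, by 1.16 (SE 0.15, adjusted p = 8.4e-07). In each of these 4 genes every 2 h library exceeded every 1 h library, but they were picked by their values at this step. How many of all genes lacked overlap was not counted.

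Other members of the list continued upward, among them genes of metal binding and antioxidant defence. zym1, metallothionein, rose by 1.42 (SE 0.20, adjusted p = 2.5e-06), from 185, 120 and 204 to 494, 377 and 471 normalised CPM. ctt1, catalase, rose by 0.96 (SE 0.15), gpx1, glutathione peroxidase, by 0.90 (SE 0.16), and tpx1, thioredoxin peroxidase, by 0.60 (SE 0.15). rds1 rose by 1.40 (SE 0.21, adjusted p = 7.1e-06), but unevenly: from 532 to 1712 normalised CPM in wt, from 312 to 1314 in clr4D and from 584 to 755 in dcr1D. pyp1, a phosphatase that dampens Sty1, started upward by 1.04 (SE 0.25, adjusted p = 0.0043). The calls of rds1, tpx1 and pyp1 were lost without the clr4D pair, and those of tpx1 and pyp1 also without wt.

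The largest continued rises were in ddr48, a stress gene, and lsd90. ddr48 had 9.37, 88.7 and 829 normalised CPM at 0, 1 and 2 h in wt, 31.3, 57.6 and 757 in clr4D, and 18.7, 102 and 389 in dcr1D. It rose by 2.95 between 1 h and 2 h (SE 0.23, adjusted p = 8.5e-12), after 2.03 in the hour before. lsd90 rose by 2.53 (SE 0.23, adjusted p = 4.7e-10), from 208, 216 and 340 to 1950, 1621 and 960 normalised CPM. In both genes dcr1D was the lowest strain at 2 h and the highest at 1 h. A step of dcr1D that differs from those of wt and clr4D was not tested.

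**Figure D3:**
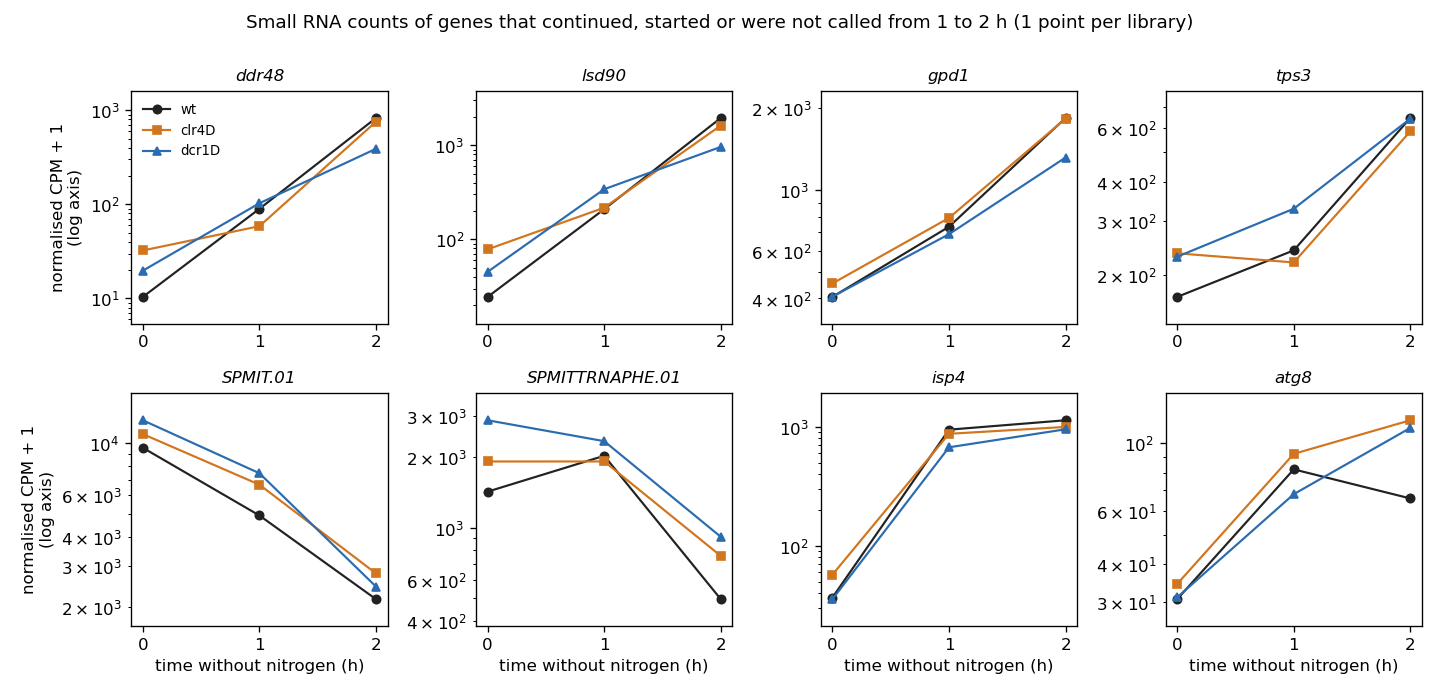
Normalised CPM plus 1 on a log axis at 0, 1 and 2 h for 8 genes that did not turn back, 1 line per strain and 1 point per library. ddr48, lsd90 and gpd1 rise at both steps, SPMIT.01 falls at both, tps3 and SPMITTRNAPHE.01 move mainly at the second step, and isp4 and atg8 were not called between 1 h and 2 h.

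Heat-shock chaperones were split by what had come before. ssa1 and ssa2, HSP70 genes, and sti1, an HSP90 co-chaperone, had fallen at 1 h and rose back. ssa2 had 193, 274 and 450 normalised CPM at 1 h in wt, clr4D and dcr1D and 426, 491 and 717 at 2 h, a rise of 0.84 (SE 0.18, adjusted p = 0.0013) that left it 1.52 below 0 h on the log2 scale (-1.52). sti1, picked once its values were known, had a rise of 1.05 (SE 0.28, adjusted p = 0.013). hsp104, a disaggregase, rose by 1.06 (SE 0.21, adjusted p = 0.00054) with no call at 1 h (-0.44). hsp9 continued upward by 0.77. None of these 5 genes was called without the clr4D pair. ssc1, the mitochondrial HSP70, was the 1 stress gene that fell (-0.54), and it was not called on the total-count scale (-0.05).

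The 23 genes that had fallen and rose back also held several of sulphate assimilation, named after their values were seen except sua1. sua1, ATP sulphurylase, had 150, 166 and 104 normalised CPM at 1 h and 290, 354 and 155 at 2 h in wt, clr4D and dcr1D, a rise of 0.90 (SE 0.19, adjusted p = 0.0011) from a fall of -2.51. sir1, sulphite reductase, rose by 0.58 (SE 0.16, adjusted p = 0.017), and the sulphate transporter genes sul1 and sul2 by 0.94 and 0.93. nce103, carbonic anhydrase, returned too, with 237, 249 and 199 normalised CPM at 0 h, 108, 130 and 77.7 at 1 h and 324, 314 and 179 at 2 h, a rise of 1.35 (SE 0.19, adjusted p = 2e-06). SPNCRNA.504, a non-coding RNA, returned from 332, 180 and 187 to 757, 501 and 451, close to its 0 h values of 714, 512 and 479 (rise 1.31, SE 0.16, adjusted p = 3.6e-07). Of the 23, 12 were no longer called against 0 h and 11 were still below it. Without the clr4D pair only 2 of the 23 were called, against 13 without wt and 18 without dcr1D.

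Genes of growth had mostly fallen at 1 h and stayed down. All 129 tested cytosolic ribosomal protein genes were below 0 h at 1 h and at 2 h, beside 23.7% and 25.3% of all genes. Between 1 h and 2 h rps402 rose (0.75, SE 0.23, adjusted p = 0.028) and rps1502 (-0.80) and rps1702 (-0.65) fell, with a median of -0.15; on the total-count scale 15 rose, none fell and the median was 0.34. Of 57 ribosome biogenesis genes 47 were lower at 1 h and 40 at 2 h than at 0 h. From 1 h to 2 h 2 of them rose: has1, an RNA helicase (1.23, SE 0.37, adjusted p = 0.025), on 4, 10 and 6 counts at 1 h and 12, 16 and 14 at 2 h, and nog2, a GTPase (0.68, adjusted p = 0.02); neither was called without the wt pair or without the clr4D pair. snR30, a snoRNA needed for rRNA processing, was the 1 snoRNA of 9 called, rising by 0.64 (SE 0.17, adjusted p = 0.011), a call lost without clr4D.

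Amino acid synthesis genes fell further in part. Of 57 tested, 8 fell and 1, sua1, rose, beside 4.97% and 3.68% of all genes, with a median of -0.05. At 1 h 38 had fallen, beside 23.7% of all genes. Arginine genes were 5 of the 8. arg4, the large subunit of carbamoyl phosphate synthase, had 648, 622 and 608 normalised CPM at 1 h and 307, 328 and 325 at 2 h in wt, clr4D and dcr1D, a fall of -0.97 (SE 0.16, adjusted p = 3.5e-05). arg3, ornithine carbamoyltransferase, fell by 1.31 (SE 0.29, adjusted p = 0.0016) with no call at 1 h. arg5 (-0.69), arg11 (-0.67) and arg1 (-0.70) also fell. eca39, a branched-chain aminotransferase, fell by 0.99 (SE 0.19, adjusted p = 0.00026). On the total-count scale arg3 alone of the 57 fell (-0.82), 10 rose and the median was 0.44. Without the clr4D pair 1 of the 57 fell, and without wt 5 did.

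Of 26 tested genes of Ste11 signalling, early mating and meiosis 4 rose and none fell, beside 3.68% and 4.97% of all genes. The median was 0.22. Without the clr4D pair none of the 26 was called, and without wt 2 were. Of the 4, cgs1, pka1 and git5 act in the cAMP pathway, which holds back mating. cgs1, the regulatory subunit of protein kinase A, had 84.9, 103 and 166 normalised CPM at 1 h and 188, 213 and 287 at 2 h, and rose by 0.95 (SE 0.19, adjusted p = 0.00047). pka1, its catalytic subunit, rose by 0.75 (SE 0.19, adjusted p = 0.0068), and git5, a G-protein beta subunit upstream of it, by 0.98 (SE 0.28, adjusted p = 0.019). byr1, the MAP kinase kinase of the pheromone pathway, rose by 0.93 (adjusted p = 0.031) from counts of 14 or 15 at 1 h. ste11, the master regulator, had 0.24 and mei2, the meiotic switch, 0.48, neither called. Of 45 TOR and nutrient signalling genes sck2, a kinase, was the 1 called, rising by 1.12 (SE 0.19, adjusted p = 5.7e-05). The lists held 20 tested core autophagy genes, 39 cell cycle genes and 29 RNAi and heterochromatin genes. None of them was called between 1 h and 2 h by edgeR or DESeq2. Unadjusted, 1, 7 and 4 had p below 0.05 in edgeR. Outside these lists atg43 was called as a rise and clr5 as a fall, both named after their values were seen. Neither call held without the wt pair or without the clr4D pair. Of the 20 listed autophagy genes 16 were above 0 h at 1 h and 15 at 2 h, beside 23.4% and 25% of all genes. On the total-count scale, where 910 of all 3584 genes rose, 8 autophagy, 12 cell cycle, 11 heterochromatin and 21 TOR genes did.

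Histone genes had gone up early and eased. At 1 h 9 of 10 were above 0 h, and at 2 h 8 were, beside 23.4% and 25% of all genes. hht1 (H3), hhf1 (H4) and hta2 (H2A) fell between the times, by 0.75, 0.60 and 0.51 (adjusted p = 0.0032, 0.02 and 0.045). hht1 had 544, 334 and 364 normalised CPM at 1 h and 242, 298 and 187 at 2 h in wt, clr4D and dcr1D, so the wt fall was the steepest. Without the wt pair none of the 10 was called. The median of the list was -0.36, and 0.14 on the total-count scale, where none of the 10 fell and 1 rose.

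**Figure D4:**
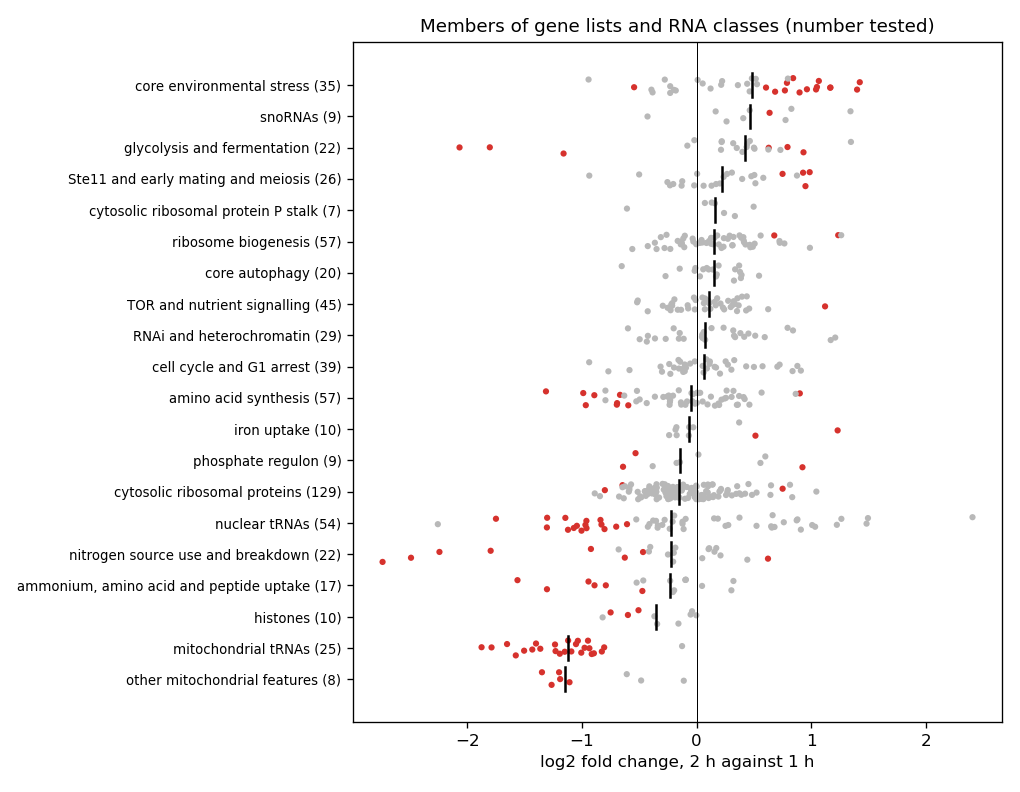
Each point is 1 tested gene or RNA, placed by its log2 fold change at 2 h against 1 h in the row of its list or class; red points were called, grey points were not, and the black bar is the row's median. Mitochondrial features lie furthest left (medians -1.12 and -1.15) and core stress genes furthest right (0.48); the 4 lowest points of the nitrogen use row are urg2, urg1, urg3 and put1.

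Mitochondrial RNA fell as a whole in this hour. Mitochondrial features held 42.9%, 43.5% and 41.6% of gene counts at 1 h in wt, clr4D and dcr1D and 25.5%, 31.3% and 29.9% at 2 h, a change of -13.8 ± 3.13 percentage points (SD, n = 3). Protein-coding genes went from 33.8%, 32.5% and 35.0% to 55.0%, 45.2% and 47.6%, a change of 15.5 ± 4.93 points. Nuclear tRNAs changed by -6.34, -1.96 and -2.16 points and non-coding RNAs by 2.43, 1.40 and 1.18. Every strain moved the same way in each class, the wt most. As a share of all reads the mitochondrial step was -0.95 points, and the protein-coding (-0.10) and non-coding (-0.011) steps turned to falls, with fewer reads counted in genes at 2 h. With 3 pairs an exact sign-flip test, two-sided, has 0.25 as its smallest p, which it gave for each of these 4 classes. In bulk samples fewer cells of a kind cannot be told from less RNA per cell.

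**Figure D5:**
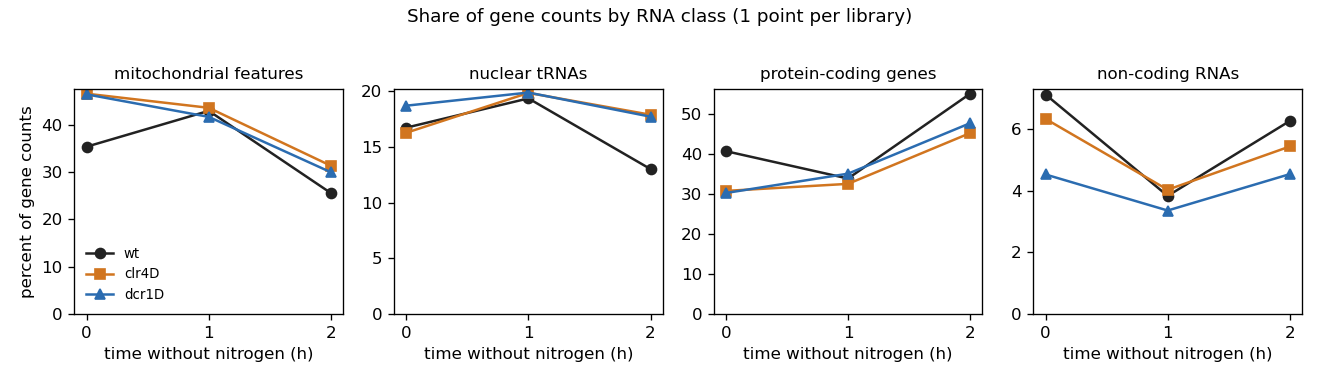
Percent of gene counts in 4 RNA classes at 0, 1 and 2 h, 1 line per strain and 1 point per library. Between 1 h and 2 h the mitochondrial share drops and the protein-coding share rises in each of the 3 strains.

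Of 25 mitochondrial tRNAs 24 fell from 1 h to 2 h (18 on the total-count scale, 14 without the clr4D pair), with a median of -1.12 beside 0.02 over all genes. At 1 h they had been mixed, 4 above and 6 below 0 h, so that 14 started to fall in this hour, 6 continued and 4 reversed. SPMITTRNAPHE.01 had 1424, 1915 and 2871 normalised CPM at 0 h, 2025, 1915 and 2338 at 1 h and 494, 757 and 913 at 2 h in wt, clr4D and dcr1D. Its fall was -1.58 (SE 0.18, adjusted p = 3.8e-08). SPMITTRNAHIS.01 fell by 1.79 (SE 0.22, adjusted p = 3.8e-07), from 17187, 22529 and 19202 normalised CPM to 3866, 6355 and 7841, and ended below 0 h (-1.19). SPMITTRNAALA.01 fell by 1.87 (SE 0.19, adjusted p = 4.2e-09). Of 8 other mitochondrial features 5 fell, each for the second hour running: SPMIT.01 had 9561, 4922 and 2165 normalised CPM at 0, 1 and 2 h in wt, 10936, 6658 and 2788 in clr4D, and 12522, 7448 and 2450 in dcr1D (-1.35, SE 0.18, adjusted p = 1.5e-06).

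Several nuclear genes for mitochondrial enzymes fell at the same step, while others, such as qcr6 and gut2, were called as rises. All were named after their values were seen and no list of such genes was set, so falls and rises were not counted. pda1, the E1 alpha subunit of pyruvate dehydrogenase, had 347, 386 and 434 normalised CPM at 1 h and 147, 161 and 179 at 2 h in wt, clr4D and dcr1D, a fall of -1.27 (SE 0.17, adjusted p = 1.6e-06) after no call at 1 h (-0.04). pdb1, the E1 beta subunit, fell by 0.92 and lat1, the E2 subunit, by 1.04. cit1, citrate synthase, and aco1, aconitase, fell by 0.96 and 0.79. sdh1 of succinate dehydrogenase (-0.88) and atp2 of ATP synthase (-0.93) had risen at 1 h. Both ended below 0 h on the TMM scale (-0.52 and -0.51). Of these 7 falling genes, pda1 was called on the total-count scale (-0.77). pdb1 and lat1 were not called without the clr4D pair, nor pdb1 without wt.

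Nuclear tRNAs took several courses. Of 54 tested 16 fell from 1 h to 2 h and none rose, beside 4.97% and 3.68% of all genes. The median was -0.22. On the total-count scale 9 fell, 6 rose and the median was 0.27. Without the clr4D pair 10 fell. SPATRNACYS.02 had 987, 769 and 1849 normalised CPM at 0 h, 4555, 4004 and 4997 at 1 h and 1408, 1671 and 2620 at 2 h in wt, clr4D and dcr1D, a reversal of -1.3 (SE 0.18, adjusted p = 1.9e-06). SPBTRNAGLY.04 began to fall in this hour, by 1.75 (SE 0.21, adjusted p = 2e-07), from 13538, 13240 and 10790 to 2598, 5005 and 4045 normalised CPM. Others were nearly lost by 1 h: SPATRNAALA.02 had 212, 94 and 155 counts at 0 h, 1, 0 and 0 at 1 h and 4, 1 and 1 at 2 h. Its counts reached the filter's minimum of 10 at 0 h alone, so a lower level later was partly fixed in advance. Copies of a tRNA with the same sequence share reads of low mapping quality, which were not counted, so values are those of the copies that can be told apart.

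Started rises outside the stress list included pmp3, a plasma membrane proteolipid, and nmt1, a thiamine synthesis gene. pmp3 had 174, 146 and 118 normalised CPM at 1 h and 399, 459 and 281 at 2 h, a rise of 1.38 (SE 0.17, adjusted p = 3.3e-07). nmt1, chosen after its values were seen, went from 2584, 2508 and 1802 to 6587, 4930 and 4487, a rise of 1.21 (SE 0.17, adjusted p = 2e-06). In the iron list of 10 tested genes isu1, a scaffold for iron-sulphur clusters (1.23, adjusted p = 0.0085), and sib1, a ferrichrome synthetase (0.51, adjusted p = 0.036), rose and none fell, but neither was called without the wt pair or without the clr4D pair. In the phosphate list of 9, vtc2 rose (0.92, adjusted p = 0.0015), and pho84 (-0.64) and pho4 (-0.53) fell; pho84 lies 89.0% within prt2 on the same strand, so its counts are uncertain. Neither fall was called on the total-count scale or without the wt pair, and without clr4D no gene of the list was called.

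Of 1528 non-coding RNAs 61 had enough counts to be tested; SPNCRNA.504 rose and SPNCRNA.935 fell, with a median of 0.25. Short RNA of the pericentromeric transcripts, which is made through Dicer, was nearly restricted to wt. Its counts had dropped by 1 h and stayed low. SPNCRNA.232 had 1938, 117 and 178 counts in wt at 0, 1 and 2 h and SPNCRNA.359 had 701, 44 and 67. Each value is from 1 library, and all gene counts in these libraries were 640322, 282058 and 207035. In clr4D SPNCRNA.232 had 38, 5 and 6 counts and in dcr1D 1, 3 and 0. SPCC13B11.02c, a reading frame within the antisense transcript of adh1, had 343, 151 and 292 normalised CPM in clr4D and 3579, 1050 and 2497 in dcr1D, a return of 1.08 (SE 0.21, adjusted p = 0.00037). In wt it had 3 counts at 1 h and 4 at 2 h, too few to show a step, and without the clr4D pair it was not called.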

How the data were processed

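Per the submitters' processing notes, reads were trimmed with cutadapt, aligned with Bowtie2 2.1.0 to ASM294v2 and counted with HTSeq 0.6.1. The sources used here give no strand setting. The deposited values are the authors' raw counts per feature, 1 file per library, and lines starting with "__" were left out. Counts were found for 551 of 564 features contained in a feature on the opposite strand and for 10 of 50 contained in one on their own strand, so the strands were counted apart. Names, classes and gene order came from the RefSeq annotation of ASM294v3 (6721 of 6878 features matched). Gene order and the overlaps between features rest on coordinates of ASM294v3, whereas the reads were counted on ASM294v2.

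The 9 libraries at 0, 1 and 2 h were fitted with edgeR 4.0.16 (R 4.3.3) with terms for strain and time, TMM factors of 0.717 to 1.46 and filterByExpr by time at a minimum count of 10. A gene could pass this filter through 1 time alone, and a difference of such a gene is partly fixed in advance. The strain term is the pairing of libraries, since each pair is 1 strain. The biological coefficient of variation was 0.118 with 4 residual degrees of freedom, and the fit was tested on simulated data. Alternatives were other scalings and filters, DESeq2 1.42.0, other library sets, no strain term and each strain left out; a test of the clr4D and dcr1D steps together against the step of wt, added after seeing the data, called none of 3584 genes in edgeR (169 at an unadjusted p below 0.05). Genes were named as the 12 largest rises and falls, up to 5 per class of change and direction and 4 per list. Others were chosen after their values were seen. The text does not mark all of these, such as tpx1, pyp1, hsp9 and ssc1 of the stress list. Members and lists were chosen with earlier results of these data known. Intervals and counting error leave out PCR duplicates.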

Additional observations from a re-analysis of the deposited data

Results flagged for a closer look

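Reads that HTSeq set aside for low mapping quality, outside every comparison above, were a larger share at 1 h and 2 h than at 0 h of the same strain. They were 96.5% and 97.0% of reads in wt at 1 h and 2 h against 79.4% at 0 h. In the libraries labelled clr4D they were 95.7% and 96.9%, and in those labelled dcr1D 93.8% and 96.0%. The share was higher at 2 h than at 1 h in all 3 strains. The files hold no position for these reads, and their part in the results was not tested.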

How the results depend on the processing

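With 3 libraries a side and at most 469222 gene counts per library at 1 h and 2 h, precision is limited, most of all for genes of few counts. Between 1 h and 2 h, 976 genes changed with total-count scaling, 187 with DESeq2, 164 without the strain term (no replicate block), 90 with the 18 libraries of 6 times and 0 with all 24 libraries, where 324 had an unadjusted p below 0.05 in edgeR, the tool used there. Genes that reversed numbered 217, 68, 55, 35 and 0 in those fits, in that order. Genes that continued numbered 305, 60, 56, 27 and 0, and genes that started 386, 50, 50, 25 and 0. The larger classes on the total-count scale did not hold all those of the TMM scale. They held 59 of the 113 that reversed, 77 of the 106 that continued and 42 of the 81 that started. With all 24 libraries, which bring in the doubtful ago1D times, 627 genes changed at 1 h against 0 h and 104 at 2 h against 0 h, and 74 persisted. With a stricter minimum count of 30, 1059 changed at 1 h and 1138 at 2 h against 0 h, and 722 persisted, from fewer genes tested (1596). The cause of the other differences was not tested.

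Leaving out each strain in turn gave 116 to 297 changed genes at 2 h against 1 h, 47 to 110 reversed, 27 to 83 continued and 40 to 86 started; the lowest were without clr4D. DESeq2's size factors, no low-count filter and leaving out tRNAs, snoRNAs and mitochondrial features kept all 7 counts within 1.5 times, and the 6 libraries of 1 h and 2 h alone kept the 1 count they allow. As a share of all reads the step was -0.95 percentage points for mitochondrial features, -0.37 for nuclear tRNAs, -0.011 for non-coding RNAs, -0.10 for protein-coding genes and 0.00086 for snoRNAs, so the rise of the protein-coding and non-coding shares turned to a fall.

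Among named genes, the log2 step changed sign in some fits, and the turned value was called in none of them: with total-count scaling, nrg1 (0.13), SPNCRNA.577 (0.36), hta1 (0.16), fep1 (0.32), tlh2 (0.31), sxa1 (0.26), map4 (0.20); with DESeq2, SPNCRNA.232 (-0.89); with all 24 libraries, isp4 (-0.054), vht1 (0.36), SPNCRNA.232 (-0.014), rps1502 (0.49), rps1702 (0.27), rps2402 (0.28), rpp102 (0.27), clr4 (-0.034), dcr1 (-0.085); and without the strain term, clr4 (-0.034). With each strain left out in turn the step crossed 0 for SPNCRNA.577 (-0.35 to 0.039), SPNCRNA.232 (-0.075 to 0.44), map4 (-1.29 to 0.40), clr4 (-0.086 to 0.16), SPCTRNASER.11 (-2.73 to 0.012), SPATRNAALA.03 (-3.12 to 4.03), sib2 (-0.023 to 0.65), mfm2 (-0.28 to 0.99), rpp103 (-0.032 to 0.57) and dcr1 (-0.15 to 0.20). Of these genes vht1, rps1502 and rps1702 were called, as falls, with the 9 libraries.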
